A study of Mus musculus with 24 samples.

Results

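The comparison described here set 3 APP/PS1 mice against 3 wild-type (WT) mice at 9 months of age, by the microRNAs (miRNAs) counted in their cerebral cortex. It used 6 of 24 small RNA libraries, chosen by the genotype and age in their labels, and every miRNA name in the table with enough counts to be tested, 433 of 1927. APP/PS1 mice carry transgenes for the amyloid precursor protein (App) and presenilin 1, deposit amyloid in the cortex as they age and are used as a model of Alzheimer disease. Both groups were of strain C57BL/6 and 9 months old, and the study holds 3 mice of each genotype also at 1, 3 and 6 months. Each age group was made up of 2 female mice and 1 male, with the sex of each library not given, so sex was not modelled. Not given in the sources used here were the transgenic line, its promoter and whether the WT mice were littermates. The tissue label reads brain while the study's title names the cerebral cortex. miRNA counts do not measure the transgenes, so the genotype labels were not checked against them.

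A miRNA is a short RNA cut from a hairpin precursor. Both arms of the hairpin (5p and 3p) can be kept, and the mature strand, held by an Argonaute protein, pairs with messenger RNAs mainly through its seed, bases 2 to 8, and lowers their output. Many miRNAs belong to a cell type, so that a tissue's miRNA profile reads its cell makeup as well as its state. miR-124 marks neurons, miR-142 cells of blood origin that include microglia, and miR-144 and miR-451a red blood cells. In bulk cortex fewer cells of a type and less of a miRNA per cell cannot be told apart.

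Of the 433 miRNAs tested, 16 (3.7%) differed between the genotypes at an adjusted p under 0.05, 12 higher in APP/PS1 (2.77%) and 4 lower (0.924%). The 4 that fell were both arms of miR-144, its genomic neighbour miR-451a and the neuronal miR-128-3p. The 12 that rose were both arms of the leukocyte and microglial miR-142a, miR-211-5p, miR-215-5p, 3 names of the miR-199 family, and 5 names that were higher in all 6 libraries of 6 months than in any library of 1 or 3 months, namely miR-690, miR-3470a, miR-1957a, miR-6481 and a predicted miRNA whose counts followed those of miR-690. The tested arms are printed next because they carry the result, 5′ to 3′ from RefSeq (GRCm38.p6), with the seed in capitals. RefSeq gave a mature sequence for 13 of the 16, which had 12 distinct seeds, the shared one being that of the 3p arms of miR-199a and miR-199b.
miR-144-5p: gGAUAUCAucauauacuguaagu
miR-144-3p: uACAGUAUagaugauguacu
miR-451a: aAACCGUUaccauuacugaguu
miR-128-3p: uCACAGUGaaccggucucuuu
miR-142a-5p: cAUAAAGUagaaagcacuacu
miR-142a-3p: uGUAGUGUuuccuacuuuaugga
miR-211-5p: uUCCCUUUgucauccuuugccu
miR-215-5p: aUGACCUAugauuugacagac
miR-199a-5p: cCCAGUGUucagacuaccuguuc
miR-199a-3p and miR-199b-3p: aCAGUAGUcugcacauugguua
miR-690: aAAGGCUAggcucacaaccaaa
miR-6481: cACUGAAAaugcuuagaug

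The libraries held 3888926 to 4382596 counts in APP/PS1 and 4036855 to 6604335 in WT, within the 2230030 to 6829622 of the whole study. The neuronal miR-124-3p had the most counts of any name in all 6, with 17.1% to 18.4% of the counts of an APP/PS1 library and 16.6% to 17.4% of a WT library. Libraries of a group differed by far more than counting noise, the chi-square divided by its degrees of freedom being 36.5 to 173. APP/PS1 replicate 1 stood apart in miRNAs of gut and kidney, and APP/PS1 replicate 2 in miR-199a, miR-214-3p and miR-223-3p, so results on these are given with and without that library. The 6 libraries of 6 months lay above all libraries of 1 and 3 months in the miR-690 group. Their range overlapped that of APP/PS1 at 9 months for miR-690, the predicted miRNA, miR-1957a and miR-6481. Levels below are CPM, counts scaled to the size of the library after TMM, and differences are log2 fold changes of APP/PS1 over WT with their standard error (SE), both from the deposited counts. Adjusted p-values are from edgeR's quasi-likelihood test over all 433 names, in a fit of all 24 libraries. They judge the genotype difference against the spread between mice, estimated over the 8 groups of all ages.

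Most miRNAs differed little. The median log2 difference over all 433 was 0.03, and 237 (54.7%) lay above 0. In 79 names (18.2%) the 3 libraries of 1 genotype lay wholly above those of the other, 45 with APP/PS1 higher (10.4%) and 34 with APP/PS1 lower (7.85%). At an unadjusted p under 0.05 there were 47 names, where 21.7 would be expected by chance. A fit of the 6 libraries of 9 months alone left 1 miRNA past the threshold, miR-144-5p. Of the 16, 15 entered that fit, all 15 in the same direction and with an unadjusted p under 0.05 in edgeR. The 16 had been chosen on the same 6 libraries, so this is no separate support for them.

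**Figure D1:**
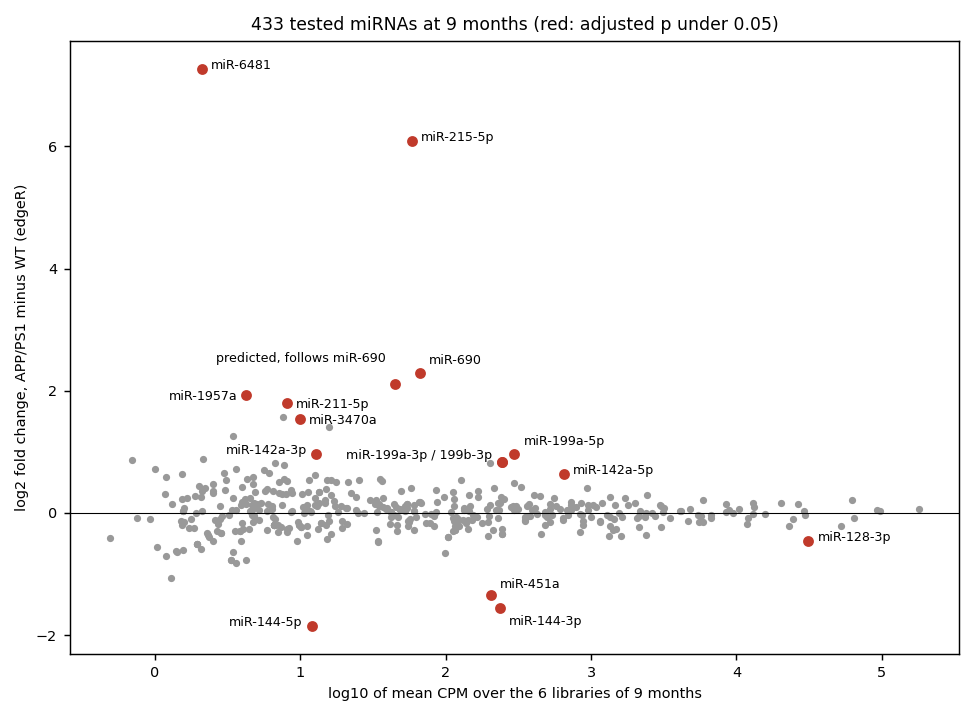
Log2 fold change (APP/PS1 minus WT, vertical axis) of 433 miRNAs at 9 months against the log10 of their mean CPM over the 6 libraries. Red points passed an adjusted p of 0.05 in edgeR, and 1 of them, miR-128-3p, lies above 1000 CPM. The height of miR-6481, with 0 counts in WT, depends on the fit and is no measured fold.

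miR-144-5p, miR-144-3p and miR-451a, miRNAs of red cells, were lower in every APP/PS1 library than in any WT library. The precursors of miR-144 and miR-451a are cut from a common transcript that the erythroid factor GATA1 switches on, and miR-451a is matured by Argonaute 2 without Dicer. Mir144 lies at chr11:78073005-78073070 and Mir451a at chr11:78073170-78073241, both on the plus strand of GRCm38.p6 and 99 bases apart. Neither overlapped another annotated gene in a search that left out miRNA genes. The precursors of both are shown to set out the arms counted, which are in capitals.
Mir144: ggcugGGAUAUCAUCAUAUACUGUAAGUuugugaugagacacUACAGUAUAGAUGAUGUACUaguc
Mir451a: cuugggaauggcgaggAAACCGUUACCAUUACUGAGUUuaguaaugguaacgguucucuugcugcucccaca

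miR-144-5p stood at 3.93, 5.95 and 5.72 CPM in APP/PS1 replicates 1 to 3 and at 17.7, 21.2 and 17.5 in WT. The groups lay far apart and each was narrow. The difference was -1.84 (SE 0.35, adjusted p = 0.00402), and it passed without any 1 of the 6 libraries. The other arm, miR-144-3p, had 49.0, 128.1 and 180.2 CPM in APP/PS1 against 408.4, 381.4 and 266.5 in WT. Here the APP/PS1 mice were spread over a wider range, with replicate 1 lowest and replicate 3 nearest to WT. It fell by 1.56 (SE 0.37, adjusted p = 0.0166). miR-451a followed the same order of mice, with 59.7, 100.9 and 187.4 CPM in APP/PS1 against 283.2, 325.5 and 274.4 in WT, and fell by 1.34 (SE 0.33, adjusted p = 0.0236). miR-451a passed without APP/PS1 replicate 3 (-1.91) and in no other fit with 1 library left out, where it lay between -1.40 and -1.04 with adjusted p-values of 0.055 (without WT replicate 1) to 0.145 (without APP/PS1 replicate 1). miR-144-3p missed the threshold without APP/PS1 replicate 1 (-1.20, adjusted p = 0.0662), APP/PS1 replicate 2 (-1.61), WT replicate 1 (-1.47) or WT replicate 2 (-1.49), and passed without the remaining 2.

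The sum of these 3 names was 112.6, 234.9 and 373.3 CPM in APP/PS1 against 709.3, 728.2 and 558.3 in WT. No library of another age was as low as the APP/PS1 libraries, since the other 18 held 621.6 to 1524 CPM. The ratio of miR-144-3p to miR-451a was 0.82 to 1.27 in APP/PS1 and 0.97 to 1.44 in WT, so the ranges overlapped. miR-486a-5p, another miRNA abundant in red cells, was at 185.4, 221.3 and 239.1 CPM in APP/PS1 against 286.9, 290.7 and 243.0 in WT, a difference of -0.34 (adjusted p = 0.546). Its APP/PS1 libraries also all lay below WT, but by little for replicate 3. miR-486b-5p has the same counts as miR-486a-5p, and miR-486a-3p and miR-486b-3p, at 1.05 to 2.48 CPM over the 6 libraries, differed by 0.04 (adjusted p = 0.976). Of the 7 names of the erythrocyte list, 3 fell, where 0.924% of all tested names fell, and 0 rose. Their median was -0.34 against 0.03 over all tested, and 2 pairs of the 7 are identical counts.

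Both arms of miR-142a were higher in the APP/PS1 cortex. miR-142 is made in cells of the blood lineage, and in the brain chiefly in microglia and other resident or passing leukocytes. Mir142 lies at chr11:87756864-87756927 (GRCm38.p6, plus strand), in an intron of its host gene Mir142hg, and is shown with both counted arms in capitals.
Mir142: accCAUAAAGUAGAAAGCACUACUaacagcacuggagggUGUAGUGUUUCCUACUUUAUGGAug

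miR-142a-5p had 742.5, 954.1 and 672.6 CPM in APP/PS1 against 539.1, 529.5 and 460.8 in WT. All 3 APP/PS1 mice were above all 3 WT mice, with replicate 2 highest. The difference was 0.63 (SE 0.13, adjusted p = 0.00563), and it passed without any 1 of the 6 libraries. miR-142a-3p, at 16.8, 20.6 and 13.7 CPM in APP/PS1 against 10.3, 9.41 and 6.62 in WT, kept the same order of APP/PS1 mice. It rose by 0.97 (SE 0.22, adjusted p = 0.0158), but missed the threshold without WT replicate 3 (0.79, adjusted p = 0.114) or APP/PS1 replicate 2 (0.80, adjusted p = 0.0823). The ratio of the 5p to the 3p arm was 44.3 to 49.2 in APP/PS1 and 52.5 to 69.6 in WT.

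Of 11 names in the immune and microglia list, 8 were tested, of which 2 rose, where 2.77% of all tested names rose, and 0 fell. The 2 that rose are the arms of the same hairpin, Mir142. The median of the list was 0.58 against 0.03 over all tested. miR-146a-5p, which restrains signalling to NF-kB, was at 19.6, 16.6 and 21.4 CPM in APP/PS1 against 14, 13.6 and 12.2 in WT. The groups did not overlap, and the difference of 0.54 missed the threshold (SE 0.17, adjusted p = 0.115). miR-146b-5p shares its seed and differs from miR-146a-5p in RefSeq by G18A and U21C, counted from the 5′ end with the base of miR-146a-5p written before the position. It had 4930 to 5662 CPM in APP/PS1 and 5749 to 5822 in WT, and its difference was -0.15 (adjusted p = 0.633).
miR-146a-5p: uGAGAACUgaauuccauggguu
miR-146b-5p: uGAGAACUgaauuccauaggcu

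miR-155-5p, a miRNA that activated immune cells make, was at 9.69, 10.9 and 4.97 CPM in APP/PS1 against 5.27, 3.69 and 5.57 in WT, with APP/PS1 replicate 3 inside the WT range (0.81, adjusted p = 0.323). The lymphocyte miR-150-5p was at 404.7 to 500.2 CPM in APP/PS1 and 492.4 to 550.0 in WT (-0.19, adjusted p = 0.658). miR-223-3p, the granulocyte and monocyte miRNA, was at 9.95, 47.8 and 10.9 CPM in APP/PS1 against 8.43, 9.04 and 8.43 in WT. Its fitted difference was 1.41 (adjusted p = 0.0919). Leaving out APP/PS1 replicate 2 brought it to 0.27 (adjusted p = 0.824), the other APP/PS1 mice being just above WT. It passed without APP/PS1 replicate 1 (1.74, adjusted p = 0.0312) or 3 (1.71, adjusted p = 0.0180) and in DESeq2 (adjusted p = 0.0471).

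Of the neuronal miRNAs, miR-128-3p differed. It had 27941, 27421 and 23773 CPM in APP/PS1 against 37555, 32754 and 38108 in WT, so the groups did not overlap. The fall was of 0.45 (SE 0.12, adjusted p = 0.0401), with APP/PS1 at 26378 ± 2271 CPM and WT at 36139 ± 2945 (SD, n = 3 each), and it missed the threshold when any 1 of the 6 libraries was left out (adjusted p up to 0.194). The same mature strand comes from 2 precursors, Mir128-1 in an intron of R3hdm1 (chr1:128202361-128202430, plus strand) and Mir128-2 in an intron of Arpp21 (chr9:112118636-112118711, minus strand). The 5p arm of Mir128-1, miR-128-1-5p, was at 76.1 to 82.2 CPM in APP/PS1 and 62.7 to 103.5 in WT, a difference of -0.02 (95% interval -0.46 to 0.42).

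All 15 names of the neuron list were tested, and 1 fell and 0 rose, with a median of -0.03. Over all tested names 0.924% fell and 2.77% rose, so 1 call among 15 is a description and no result about the list. miR-129-5p had the next smallest p of the list, at 1287 to 1510 CPM in APP/PS1 and 1627 to 2098 in WT, with no overlap (-0.38, adjusted p = 0.301). miR-124-3p was at 191381, 185228 and 175333 CPM in APP/PS1 against 184777, 178626 and 165324 in WT, a difference of 0.06 with a 95% interval of -0.14 to 0.27. The activity-regulated miR-132-3p (-0.08, adjusted p = 0.896) and miR-212-3p (-0.01, adjusted p = 0.973) overlapped between the genotypes. miR-338-3p, the tested member of 6 oligodendrocyte names, was at 5.97 to 7.33 CPM in APP/PS1 and 5.80 to 9.04 in WT.

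miR-211-5p was higher in APP/PS1. It is cut from an intron of Trpm1 (Mir211 at chr7:64205806-64205911, plus strand), a gene of pigment cells, and belongs with miR-204-5p to a family abundant in retinal pigment epithelium and choroid plexus, the tissue that secretes cerebrospinal fluid. The strands differ at U17A, counted from the 5′ end with the base of miR-211-5p written before the position, and share the seed.
miR-211-5p: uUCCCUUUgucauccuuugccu
miR-204-5p: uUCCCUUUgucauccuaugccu

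miR-211-5p was at 18.1, 10.9 and 8.95 CPM in APP/PS1 against 4.48, 2.03 and 4.36 in WT. Every APP/PS1 mouse was above every WT mouse, replicate 1 by the most. The difference was 1.80 (SE 0.38, adjusted p = 0.00843), and it missed the threshold without APP/PS1 replicate 1 (1.44, adjusted p = 0.0662) or WT replicate 2 (1.51, adjusted p = 0.053). miR-204-5p was at 451.5, 315.2 and 358.2 CPM in APP/PS1 against 259.8, 342.1 and 237.6 in WT, again with replicate 1 highest but with overlap (0.42, adjusted p = 0.633). The 4 tested of 6 choroid plexus names had 1 rise and 0 falls, with a median of 0.23. Over all tested names 2.77% rose and 0.924% fell, so 1 call is a description and no result about the list. miR-449a-5p, a miRNA of ciliated cells, was at 3.72 to 14.2 CPM in APP/PS1 and 4.66 to 13.5 in WT (-0.27, adjusted p = 0.893), and miR-34b-5p and miR-34c-5p had too few counts to be tested.

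miR-215-5p had the largest difference of any miRNA with counts in both groups, and its size came from 1 library. miR-215, miR-192 and miR-194 are epithelial miRNAs of gut and kidney. It was at 333.6, 5.95 and 5.47 CPM in APP/PS1 against 0.53, 1.66 and 2.41 in WT. Replicate 1 stood far above all other libraries, and the other APP/PS1 mice were above the WT mice by a few CPM. The difference was 6.10 (SE 1.15, adjusted p = 0.00402). Leaving out APP/PS1 replicate 1 brought it to 1.76 (adjusted p = 0.107), and DESeq2 gave it no adjusted p. Mir215 (chr1:185313581-185313692, plus strand) lies 195 bases after Mir194-1 (chr1:185313319-185313385), both within 2010103J01Rik and opposite an intron of Iars2.

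The partners were also highest in APP/PS1 replicate 1. miR-194-5p was at 497.3, 281.8 and 252.8 CPM in APP/PS1 against 241.6, 244.0 and 250.7 in WT (0.49, adjusted p = 0.137, and 0.11 without replicate 1). miR-192-5p was at 1663, 827.4 and 726.3 CPM in APP/PS1 against 795.9, 787.4 and 829.6 in WT (0.41, adjusted p = 0.490, and -0.07 without replicate 1). Replicates 2 and 3 were thus within or near the WT range for both. The summed CPM of the 3 names was 2494 in APP/PS1 replicate 1 and 984.5 to 1115 in the other 5 libraries of 9 months, and 921.9 to 1294 in the 18 of other ages. miR-192-5p differs from miR-215-5p by A1C, U12A and A20C, with the base of miR-215-5p written before the position, and the ratio of miR-192-5p to miR-215-5p was 4.98 in APP/PS1 replicate 1, 132.8 and 139.1 in replicates 2 and 3, and 344.6 to 1511 in WT. The part of tissue other than cortex in these values was not tested.
miR-215-5p: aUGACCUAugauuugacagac
miR-192-5p: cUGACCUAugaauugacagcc

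The miR-199 family rose, and here APP/PS1 replicate 2 carried most of the size. miR-199a and miR-214 are miRNAs of mesenchyme, found in fibroblasts and other connective tissue cells such as those of the meninges. Mir199a-2 (chr1:162217814-162217923, plus strand) and Mir214 (chr1:162223368-162223477, plus strand) lie 5444 bases apart in Dnm3os, a noncoding RNA opposite Dnm3. Mir199a-1 (chr9:21496495-21496564) gives the same strands from opposite an intron of Dnm2. The precursor of Mir199a-1 is shown with its arms in capitals.
Mir199a-1: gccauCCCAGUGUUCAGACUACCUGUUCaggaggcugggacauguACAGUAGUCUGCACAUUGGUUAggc

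miR-199a-5p was at 303.5, 629.4 and 246.8 CPM in APP/PS1 against 193.4, 193.5 and 216.8 in WT. miR-199a-3p, whose counts are those of miR-199b-3p too, was at 231.2, 482.2 and 215.0 CPM in APP/PS1 against 171.8, 179.1 and 172.6 in WT. In both arms all APP/PS1 mice were above WT, and replicate 2 was highest. The differences were 0.97 (SE 0.26, adjusted p = 0.0392) for miR-199a-5p and 0.83 (SE 0.22, adjusted p = 0.0392) for miR-199a-3p. Without APP/PS1 replicate 2 they were 0.45 (adjusted p = 0.370) and 0.35 (adjusted p = 0.394). They also missed the threshold without WT replicate 1, 2 or 3, at 0.90 to 1.02 for miR-199a-5p and 0.78 to 0.85 for miR-199a-3p, with adjusted p-values of 0.114 to 0.155. With RLE scaling (adjusted p = 0.0513 and 0.0536), and without the 6-month libraries (0.0612 and 0.0527), both also missed it, as did miR-199a-3p with identical names kept once (0.0516).

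miR-214-3p was at 2.36, 9.66 and 2.49 CPM in APP/PS1 against 1.58, 2.95 and 1.51 in WT, again highest in replicate 2 (1.25, adjusted p = 0.301, and 0.25 without replicate 2). miR-199b-5p was at 21.5, 29.5 and 10.9 CPM in APP/PS1 and 14 to 15.7 in WT (0.50, adjusted p = 0.665). Of the 5 tested of 6 mesenchyme names, 3 rose, where 2.77% of all tested names rose, and 0 fell. Of these 3, miR-199a-3p and miR-199b-3p are 1 measurement, whose value is also the median of the list, 0.83. Over all tested names the median was 0.03. The myeloid miR-223-3p had its highest level in the same library, at 47.8 CPM. The part of meninges or other attached tissue in these values was not tested. The endothelial miR-126a-3p (0.02) and miR-126a-5p (0.01) and the smooth muscle miR-143-3p (-0.01) and miR-145a-5p (0.35) had adjusted p-values of 0.837 to 0.986. Of these 4, 0 passed, where 3.7% of all tested names did, so this is a description and no result about them. For miR-145a-5p all APP/PS1 libraries lay above WT.

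**Figure D2:**
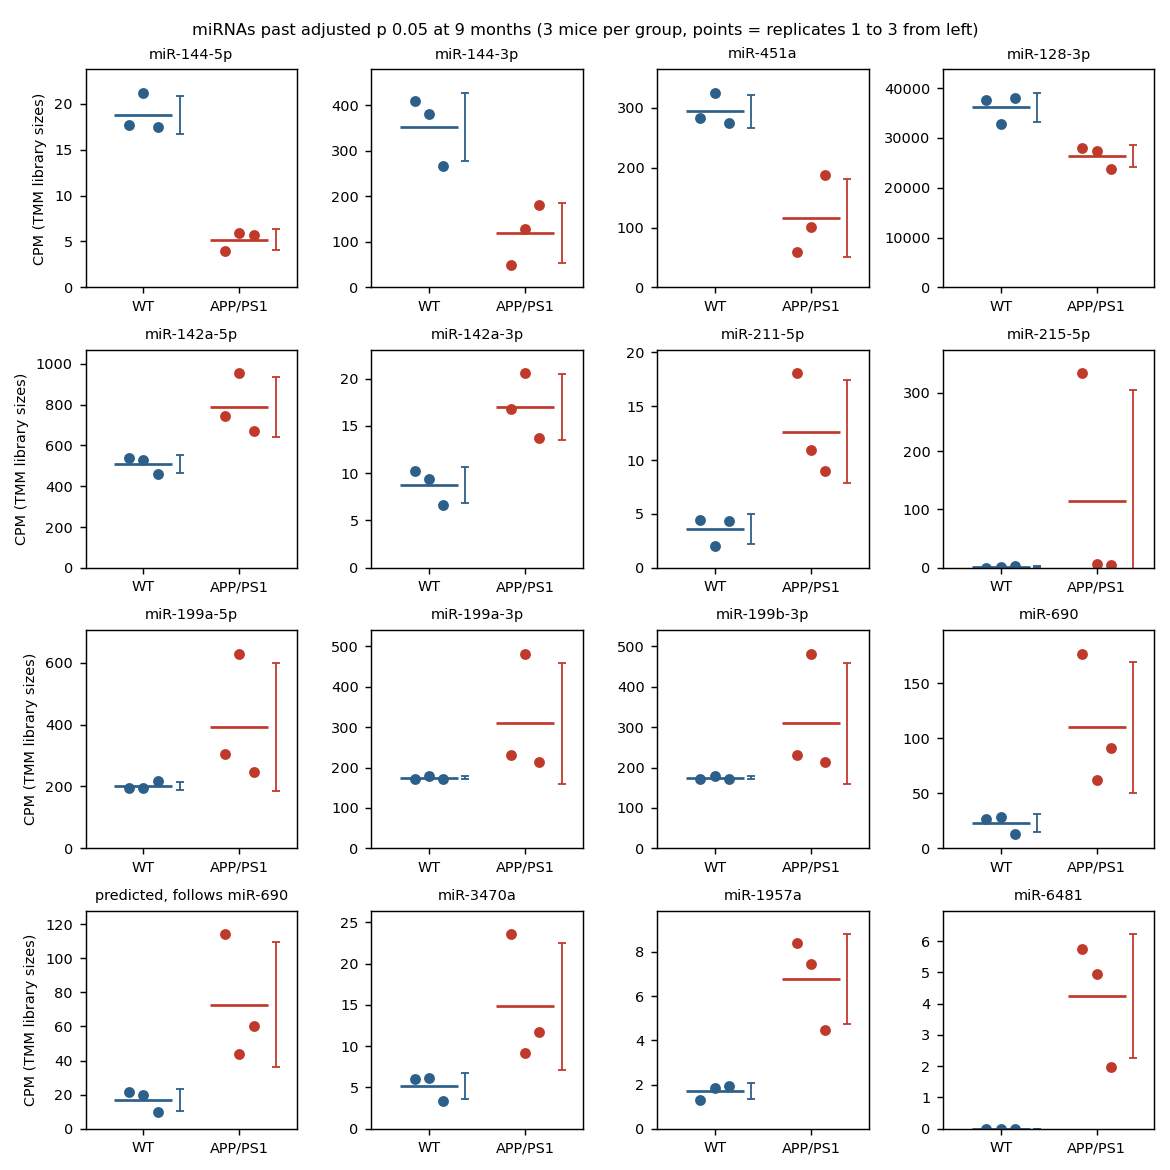
CPM (linear axis) of the 16 miRNAs past an adjusted p of 0.05, with a point for each mouse (replicates 1 to 3 from left), a line at the group mean and a bar of 1 SD, drawn from 0 where it would go below. miR-215-5p is high in APP/PS1 replicate 1 and the miR-199 names in replicate 2, while miR-144-5p lies at 3.93 to 5.95 CPM in APP/PS1 and 17.5 to 21.2 in WT.

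**Figure D3:**
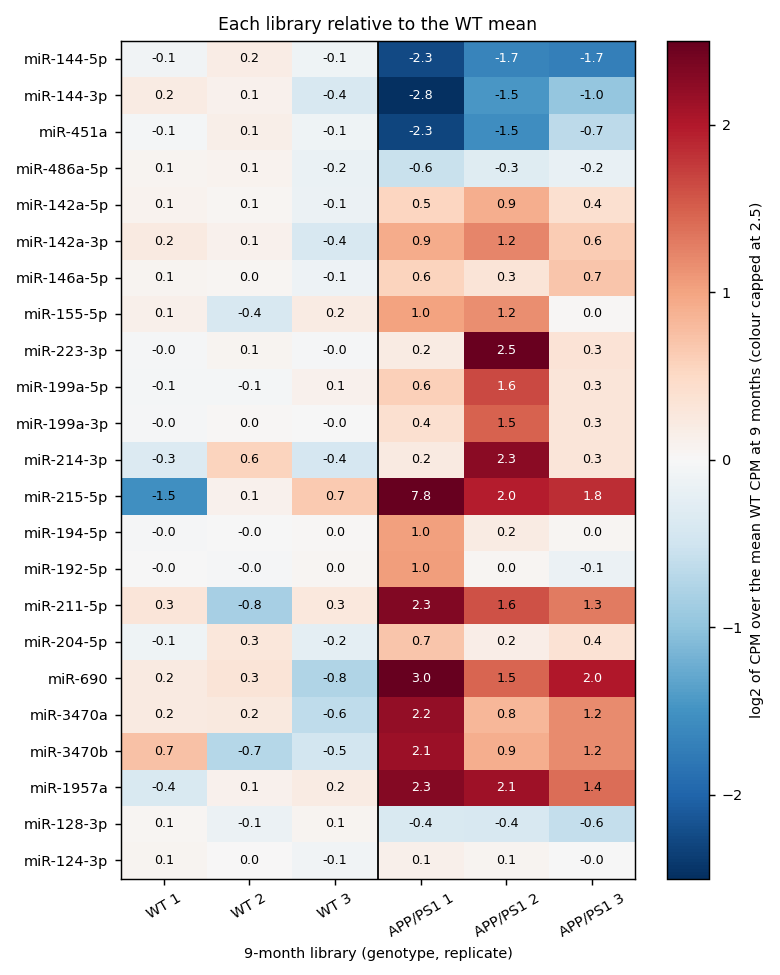
Log2 ratio of each 9-month library's CPM to the mean CPM of the 3 WT libraries, for 23 miRNAs (rows) in 6 libraries (columns), with the colour limited to 2.5 in size. miR-144-5p, miR-144-3p, miR-451a and miR-486a-5p are below 0 in all APP/PS1 libraries, miR-192-5p, miR-194-5p and miR-215-5p are highest in APP/PS1 replicate 1, and miR-199a, miR-214-3p and miR-223-3p in APP/PS1 replicate 2.

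The last 5 that rose were miR-690, the predicted miRNA, miR-3470a, miR-1957a and miR-6481, whose levels also differed between the ages. Mir690 lies in an intron of Fgf12 on the same strand (chr16:28599935-28600043, minus strand), and Mir6481 opposite an intron of Wars2 (chr3:99199344-99199453, minus strand). The Mir690 precursor is shown with the counted arm in capitals.
Mir690: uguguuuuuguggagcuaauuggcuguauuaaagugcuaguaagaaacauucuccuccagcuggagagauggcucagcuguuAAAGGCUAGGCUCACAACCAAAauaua

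miR-690 was at 176.8, 62.4 and 91 CPM in APP/PS1 against 26.3, 28.2 and 13.4 in WT. All APP/PS1 mice were above all WT mice, replicate 1 by the most. The difference was 2.29 (SE 0.42, adjusted p = 0.00402), falling to 1.76 without APP/PS1 replicate 1 (adjusted p = 0.0312). The predicted miRNA had 114.2, 44.1 and 60.2 CPM in APP/PS1 against 21.6, 19.6 and 9.78 in WT, a difference of 2.12 (SE 0.41, adjusted p = 0.00402). Its ratio to miR-690 was 0.65 to 0.71 in APP/PS1 and 0.69 to 0.82 in WT, so the pair moved nearly in step.

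miR-3470a was at 23.6, 9.17 and 11.7 CPM in APP/PS1 against 6.06, 6.09 and 3.31 in WT (1.54, adjusted p = 0.0166), and its difference was 1.03 (adjusted p = 0.255) without APP/PS1 replicate 1. miR-1957a was at 8.38, 7.43 and 4.47 CPM in APP/PS1 against 1.32, 1.84 and 1.96 in WT (1.94, adjusted p = 0.0185). miR-6481 had 22, 20 and 8 counts in APP/PS1 and 0 in each WT library, at least 22.3-fold higher when the WT group as a whole is set to the floor of 3 counts (adjusted p = 0.0166). The APP/PS1 libraries lay above WT in each of these, and replicate 1 was highest in all. The ratio of miR-3470a to miR-690 was lower in APP/PS1, at 0.128 to 0.147, than in WT, at 0.216 to 0.247, so these did not keep step. miR-3470a also missed the threshold without WT replicate 1 (1.63), 2 (1.71) or 3 (1.27, adjusted p = 0.149). miR-1957a passed without APP/PS1 replicate 3 and in no other fit with 1 library left out (1.73 to 2.04, adjusted p up to 0.118), and miR-6481 missed without APP/PS1 replicate 1 or 2 or WT replicate 2 or 3 (adjusted p up to 0.0903). miR-3470b just missed the threshold, at 17.3, 7.43 and 8.95 CPM in APP/PS1 against 6.59, 2.40 and 2.86 in WT (1.56, SE 0.44, adjusted p = 0.0518).

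The sum of miR-690, miR-3470a, miR-3470b, miR-1957a and miR-6481 was 91.4 to 231.8 CPM in APP/PS1 and 21.5 to 40.3 in WT at 9 months. At 1 and 3 months the libraries of both genotypes held 18.1 to 56.1 CPM, near the 9-month WT mice. At 6 months both were high and in the opposite order, with 252.8 to 492.0 CPM in APP/PS1 and 631.7 to 845.3 in WT. miR-690 makes up most of this sum, and the order of the genotypes at 6 months was not that of every member: miR-1957a (6.84 to 21.8 CPM in APP/PS1, 11.9 to 26.0 in WT) and miR-6481 (2.85 to 22.3 CPM in APP/PS1, 1.78 to 10.6 in WT) overlapped. In the sum the APP/PS1 mice of 9 months thus lay between the 6-month mice and all others. By single names the ages overlapped in part, as for miR-690, with 175.6 to 373.4 CPM in APP/PS1 at 6 months and 62.4 to 176.8 at 9 months. What the libraries of 6 months share besides age was not given in the labels, and a batch of animals or preparation cannot be told apart from age.

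Beyond the 16, the 6 higher names with the smallest p were miR-3470b, miR-223-3p, miR-345-5p, miR-146a-5p, miR-574-5p and miR-29b-3p. miR-345-5p was at 182.0 to 190.6 CPM in APP/PS1 and 142.8 to 150.3 in WT (0.36, adjusted p = 0.115). miR-574-5p was at 5.95 to 8.70 CPM in APP/PS1 and 4.21 to 4.43 in WT (0.70, adjusted p = 0.131). miR-29b-3p, which targets the Bace1 transcript of the enzyme that cuts App, was at 2593, 2759 and 2717 CPM in APP/PS1 against 2279, 2236 and 2028 in WT (0.30, SE 0.10, adjusted p = 0.131). The groups did not overlap in these 3, and those of miR-345-5p and miR-29b-3p were narrow.

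The 6 lower names with the smallest p were miR-340-5p, miR-664-3p, miR-369-3p, miR-381-3p, miR-101b-3p and miR-598-3p. miR-340-5p was at 1994 to 2181 CPM in APP/PS1 and 2247 to 3287 in WT (-0.36, adjusted p = 0.158). miR-664-3p was at 2.10 to 2.97 CPM in APP/PS1 and 4.24 to 4.82 in WT (-0.81, adjusted p = 0.193). The other 4 differed by -0.22 to -0.38 with adjusted p-values of 0.299 to 0.301, and miR-369-3p and miR-381-3p come from the imprinted Dlk1-Dio3 locus.

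Over all tested names 3.7% were called, and beside that share 0 or 1 call in the lists that follow is a description and no result about their members. Of 22 miRNAs reported to target App or Bace1 transcripts, 19 were tested, 0 passed in either direction and the median was 0.06. Within it, miR-339-5p was at 8.18 to 11 CPM in APP/PS1 and 4.80 to 6.59 in WT (0.79, adjusted p = 0.137), and miR-101b-3p at 1206 to 1482 in APP/PS1 and 1543 to 1747 in WT (-0.26, adjusted p = 0.301). With adjusted p-values of 0.757 and 0.666, miR-29a-3p (0.13) and miR-29c-3p (0.13) share the seed of miR-29b-3p. Of 13 miRNAs often followed in Alzheimer disease, all tested, miR-142a-5p rose and 0 fell, with a median of 0.13.

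For the Dlk1-Dio3 locus, a large brain cluster expressed from the maternal chromosome, 90 tested names were matched by precursor name. The tested miR-3070-5p, whose precursors also lie there, was not among them. These 90 names had 0 calls, a median of 0.01, and 48 values above 0 against 42 below. The 25 tested names of the Sfmbt2 cluster, a rodent cluster in an intron of Sfmbt2, also had 0 calls, with 22 values below 0 and a median of -0.20. Those names share near-identical sequences and in part identical counts, so they are not 25 independent values. miR-467a-5p and miR-467b-5p, with the same counts, had 85.4 to 100.2 CPM in APP/PS1 and 108.3 to 127.4 in WT (-0.39, adjusted p = 0.633). The let-7 family (9 tested, median 0.00) and the miR-17-92 family with its paralogs (7 of 14 tested, median 0.12) had 0 calls each, and in the latter miR-19a-3p (0.54, adjusted p = 0.368) and miR-19b-3p (0.34, adjusted p = 0.430), which share a seed, were above 0.

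Tested markers of striated muscle, liver, hypothalamus and pituitary also had 0 calls, which beside the 3.7% called over all tested names is a description. Of 5 hypothalamus and pituitary names, 2 had enough counts to be tested. The 6 tested names of striated muscle and liver had 0 calls and a median of 0.10, with miR-122-5p of liver at 2.49 to 4.45 CPM in APP/PS1 and 1.81 to 3.13 in WT. miR-7a-5p, abundant in hypothalamus and pituitary, was at 7567, 6840 and 12458 CPM in APP/PS1 against 7919, 8457 and 7762 in WT (0.15, adjusted p = 0.896), so APP/PS1 replicate 3 was the high one. miR-7b-5p was highest in the same library, at 2583 CPM against 1800 to 2005 in the other 5 (0.16, adjusted p = 0.873).

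**Figure D4:**
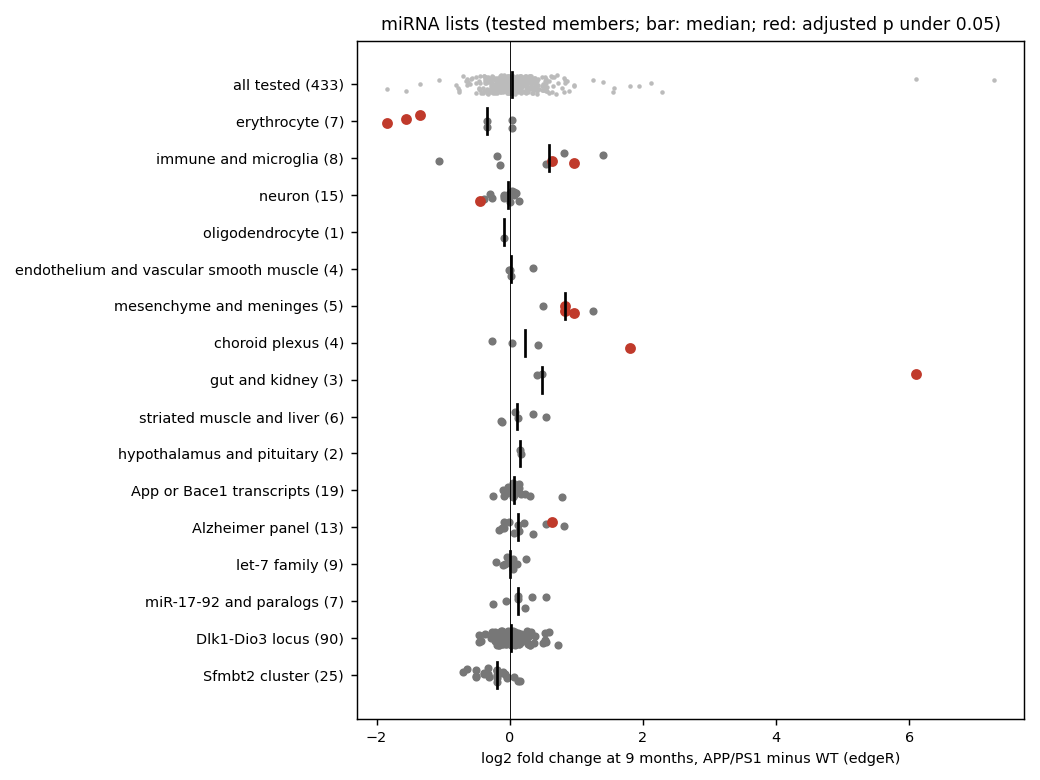
Log2 fold change at 9 months (APP/PS1 minus WT) of the tested members of 16 miRNA lists, with all 433 tested names on top, number tested in brackets, a bar at each median and red for an adjusted p under 0.05. The erythrocyte list has its 3 calls below 0, and the mesenchyme list its 3 calls above 0.

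Among the abundant miRNAs the intervals were narrow. Of the 72 names at or above 1000 CPM, 1 passed, miR-128-3p, and the median size of the log2 difference was 0.098. The 5 with the most counts were miR-124-3p, miR-26a-5p, miR-99a-5p, miR-9-5p and miR-125b-5p. miR-26a-5p differed by 0.03 (95% interval -0.19 to 0.25), miR-99a-5p by 0.04 (-0.19 to 0.28) and miR-9-5p by -0.09 (-0.37 to 0.19). miR-125b-5p was at 61951 to 72085 CPM in APP/PS1 and 52621 to 60749 in WT, without overlap, and differed by 0.22 (-0.11 to 0.55). Of the 16 that passed, 7 had a mean of at least 100 CPM over the 6 libraries, as had 177 of all 433 tested names. The calls were thus spread over abundance much as the tested names were.

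The difference at 9 months was also tested against its mean at 1, 3 and 6 months. That test holds the same 6 libraries of 9 months on which the 16 were chosen. Calls that it shares with the 16 are therefore no separate support for them. The difference at 9 months departed from the earlier ages for 12 of 433 names (2.77%). These were both arms of miR-142a, miR-144-5p, miR-211-5p, miR-215-5p, the 3 miR-199 names, miR-690, the predicted miRNA, miR-3470a and miR-3470b, so 11 of the 16 and miR-3470b. Of the 16, 0 passed in edgeR at 1, 3 or 6 months taken singly. At these ages 8, 7 and 6 of them had the direction of 9 months. They were chosen for their difference at 9 months, so these counts are a description and no result about them. The outcome of the test against the other ages depended on the libraries. No name passed without WT replicate 3 of 9 months, 4 passed without WT replicate 2 and 6 without WT replicate 1. None passed when the 6-month libraries were left out, where the smallest adjusted p among the 12 was 0.0810. At an unadjusted p under 0.05 in edgeR there were 35 names with all libraries in, 32 without WT replicate 3 and 45 without the 6-month libraries, and DESeq2 with all libraries gave 15 adjusted calls.

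For miR-144-5p the genotypes differed by 0.02, -0.12 and -0.46 at 1, 3 and 6 months, and the change to 9 months was -1.66 (adjusted p = 0.0195). Its APP/PS1 libraries of 9 months were below all others, which held 11.5 to 46.6 CPM. miR-144-3p (-1.39, adjusted p = 0.0929) and miR-451a (-1.30, adjusted p = 0.0869) did not pass this test. For miR-142a-5p the earlier differences were -0.01, 0.05 and -0.10, and the change was 0.65 (adjusted p = 0.0195). Its 9-month APP/PS1 range of 672.6 to 954.1 CPM overlapped that of the 6-month WT mice, 583.3 to 786.9, which included the highest WT mouse of any age.

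miR-211-5p was at 2.03 to 6.75 CPM in all other libraries, below every APP/PS1 mouse of 9 months, and its change was 1.79 (adjusted p = 0.0344). The miR-199a-5p difference was 0.15, -0.41 and -0.24 at the earlier ages, and its change 1.135 (adjusted p = 0.0383). miR-690 had differed by 0.34, -0.08 and -1.08, and its change of 2.56 (adjusted p = 0.0111) was measured partly against the high WT mice of 6 months, since without the libraries of that age it was 2.17 (adjusted p = 0.0810). miR-128-3p was lower in APP/PS1 at all 4 ages, by -0.40, -0.25 and -0.21 at 1, 3 and 6 months, and its change at 9 months was -0.17 (adjusted p = 0.784).

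**Figure D5:**
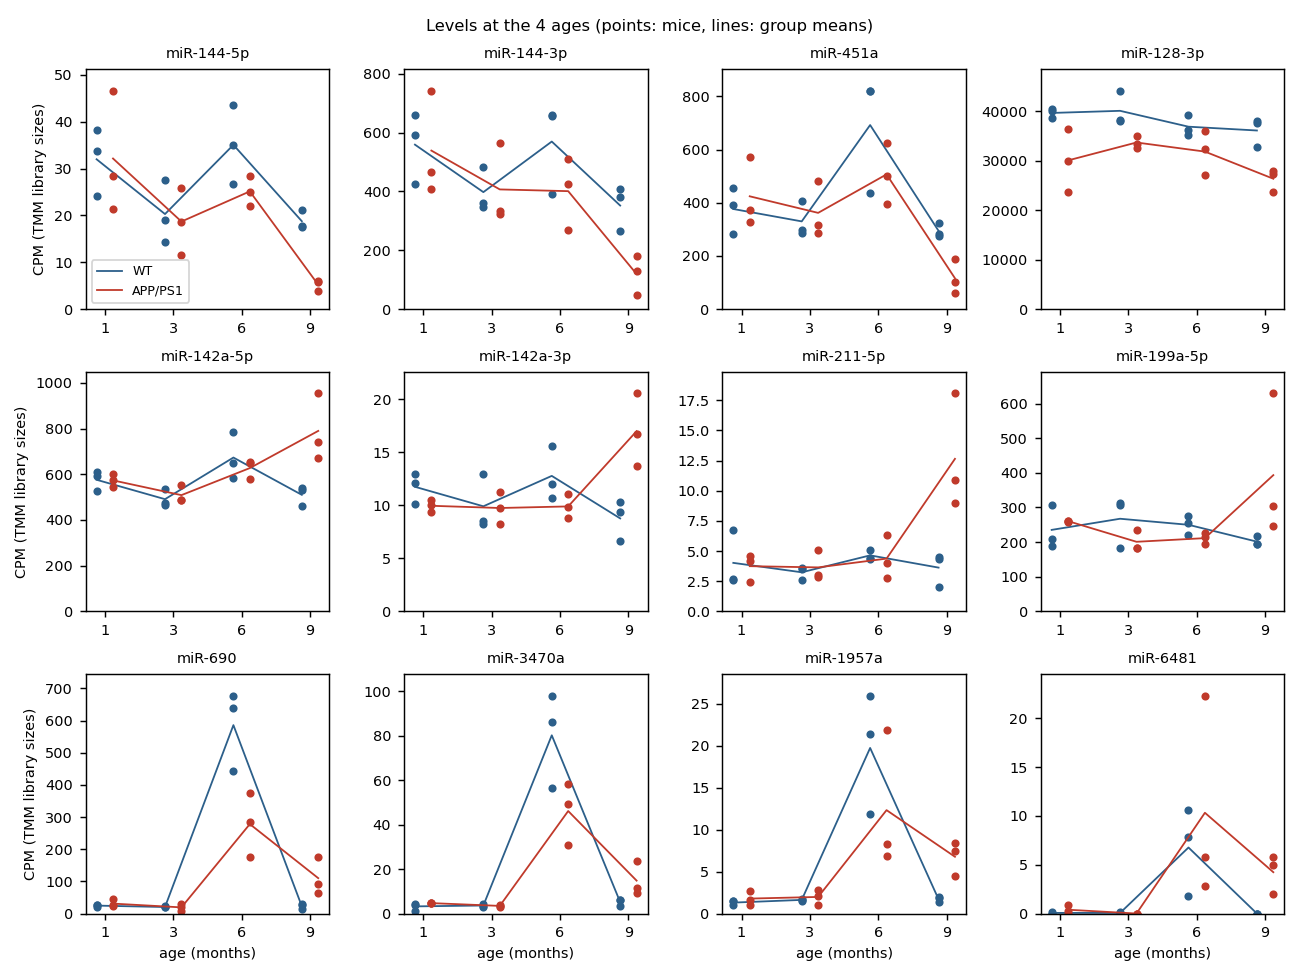
CPM of 12 miRNAs at 1, 3, 6 and 9 months in WT (blue) and APP/PS1 (red), with a point for each mouse and a line through group means. miR-144-5p, miR-144-3p and miR-451a reach their lowest levels in APP/PS1 at 9 months, miR-211-5p its highest, and miR-690, miR-3470a and miR-1957a peak at 6 months.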

How the data were processed

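The deposited table holds raw counts per mature miRNA name from small RNA libraries of mouse cortex (Trizol RNA, TruSeq small RNA kit, HiSeq 2500, single-end, per the labels' protocols). Per the submitters' processing notes, reads of 17 to 35 bases were kept with cutadapt 1.14, those with quality under 20 removed with Trimmomatic 0.36, other small RNAs removed with BLAST 2.6.0, and names taken from miRBase 21.0 and miRDeep2 2.0.0.8. Not given in the sources used here were the counting tool, its treatment of reads with several matches, and the build of the genome. The values measure relative abundance, and 15 sets of names (32 names) have identical counts.

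Counts of all 24 libraries in 8 groups were scaled by TMM, filtered by expression (minimum count 10, minimum total 15) and fitted by quasi-likelihood in edgeR 4.0.16 (R 4.3.3), with 16 residual and 4.64 prior degrees of freedom and a biological coefficient of variation of 18.6%. Adjustment was by Benjamini and Hochberg over 433 names. SE is the log2 fold change divided by the root of F, in size. The fits were tested on simulated data. A permutation over 3 against 3 libraries cannot go below p = 0.1 and was not used. Intervals are 95% and from the same fit.

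Named were all that passed, the partners within 10 kb or on the same hairpin, the 6 next on each side, up to 4 members per list with the smallest p, those past the test against other ages, and the 5 most abundant. miR-486a-3p, miR-486b-3p, miR-34b-5p and miR-34c-5p, and list members with larger p, were named to describe their lists after their values were seen. The comparison, lists and tests were chosen with earlier results of these data known. Sequences and positions are from RefSeq and GENCODE vM21 (GRCm38.p6), with 358 of 433 names matched to a mature sequence. Alternatives were RLE scaling, DESeq2 1.42.0, no filter, identical names kept once, 9-month libraries alone, a replicate block and each library left out, and, added after seeing the data, no 6-month libraries.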

Additional observations from a re-analysis of the deposited data

Results flagged for a closer look

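For 12 miRNAs the genotype difference at 9 months differed from its mean at 1, 3 and 6 months in edgeR's test of that difference. On the log2 scale it was higher at 9 months by 2.56 for miR-690 (adjusted p = 0.0111), 2.34 for the predicted miRNA that follows it (0.0124), 1.64 for miR-3470a (0.0383) and 1.999 for miR-3470b (0.0383). For the blood-lineage miR-142a it was higher by 0.65 for the 5p arm and 1.17 for the 3p arm (adjusted p = 0.0195 each). The miR-199 names were higher by 1.135 (miR-199a-5p, adjusted p = 0.0383) and by 1.104 (miR-199a-3p and miR-199b-3p, 1 measurement, adjusted p = 0.0195), and without APP/PS1 replicate 2 by 0.63 (adjusted p = 0.244) and 0.64 (adjusted p = 0.0907). miR-211-5p was higher by 1.79 (adjusted p = 0.0344) and miR-215-5p by 6.03 (adjusted p = 0.0195), of which 1.70 was left without APP/PS1 replicate 1 (adjusted p = 0.329). miR-144-5p was lower, with -1.66 (adjusted p = 0.0195). The test held the same 6 libraries of 9 months on which the 16 names were chosen, so it is no separate support for those. Without WT replicate 3, or without the 6-month libraries, 0 of the 12 passed. Without APP/PS1 replicate 1, miR-144-5p (-1.51, adjusted p = 0.121), miR-211-5p (1.43, adjusted p = 0.246), miR-3470a (1.125, adjusted p = 0.376) and miR-3470b (1.55, adjusted p = 0.325) missed the threshold too.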

How the results depend on the processing

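The 16 names that differed at 9 months were 13 with RLE scaling, 18 with DESeq2, 21 with no filter, 14 with identical names kept once, 17 without the 6-month libraries (chosen after seeing the data) and 1 with the 9-month libraries alone, a fit on fewer samples and 392 names. Leaving out 1 library gave 6 (without WT replicate 2) to 17, with 9 and 7 without APP/PS1 replicates 1 and 2 and 9 and 7 without WT replicates 1 and 3, and 4 names passed every time: miR-690, the predicted miRNA, miR-144-5p and miR-142a-5p. The 12 names of the test against other ages were 12, 15, 18 and 10 under RLE, DESeq2, no filter and identical names once, 0 without the 6-month libraries, and 0 to 17 with 1 library left out, with 0, 4 and 6 without WT replicates 3, 2 and 1. Same-numbered libraries of the genotypes did not deviate together at 9 months (correlations -0.0415, -0.234 and -0.273). With deviations centred within groups of 3 mice, these values cannot decide whether equal numbers pair the mice. With a replicate block the counts were 12 and 10. At 9 months miR-215-5p (3.97, adjusted p = 0.0957), miR-199a-5p (0.0978), miR-199a-3p and miR-199b-3p (0.0828) and miR-128-3p (0.107) then missed the threshold. Names near 0 changed sign. miR-126a-3p was -0.015 with RLE and DESeq2, -0.020 with identical names once, -0.0064 with 9-month libraries alone, and -0.083 to 0.2 with 1 library left out. miR-26a-5p was -0.0038 with RLE and DESeq2, -0.011 with identical names once, and -0.074 to 0.10 with 1 library left out. miR-128-1-5p was 0.011 under the replicate block and -0.20 to 0.20 with 1 library left out. With 1 library left out, miR-7a-5p ranged over -0.19 to 0.31, miR-7b-5p -0.036 to 0.27, miR-99a-5p -0.040 to 0.097, miR-192-5p -0.066 to 0.60 and miR-338-3p -0.22 to 0.16. The causes were not tested. The depth of 3888926 to 6604335 counts limits names of a few CPM, such as miR-6481. Intervals use a spread pooled over the 8 groups of 3 mice.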
